A study of Homo sapiens with 39 samples.

Results

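RNA levels of 8 genes of the ADP-ribosylation machinery were described across all 13 groups of C4-2B cultures. The genes are PARP1, PARP2, PARP3, PARP4, TNKS and TNKS2, which are members of the poly(ADP-ribose) polymerase (PARP) family, HPF1, the partner protein of PARP1 and PARP2, and PARG, the main enzyme that removes the polymer. They were listed by name, and all 8 of them were found among the 63187 genes of the count table and passed the filter on low counts. C4-2B is a castration-resistant human prostate cancer line derived from LNCaP. It is 1 line, so no value here speaks for other prostate cancer cells. Stranded mRNA sequencing was done on 39 libraries, 3 per group, with totals of 26932205 to 49833473 estimated counts (median 37223200). All cultures were grown in the same serum-containing medium.

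In the time course, 18 libraries held vehicle (DMSO), 1 µM olaparib or 5 µM olaparib at day 1 or day 5. The 5-day panel held 21 libraries of 7 groups. These were DMSO, 5 µM abiraterone, 20 µM enzalutamide, 1 µM olaparib, 10 nM talazoparib, abiraterone plus olaparib at those doses, and enzalutamide plus talazoparib at those doses. Olaparib and talazoparib occupy the NAD+ pocket of PARP1 and PARP2. Abiraterone blocks androgen synthesis and enzalutamide blocks androgen signalling. The panel asks what the inhibitors do alone and together, and the time course asks how dose and time matter. The labels do not say whether the 3 libraries of a group came from separate experiments, so p-values measure only the spread between these libraries, which may be technical.

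PARP1 is the abundant nuclear sensor of DNA strand breaks and makes most of the cell's poly(ADP-ribose) from NAD+, and PARP2 is its closest relative. HPF1 binds either enzyme at a break and completes the active site that modifies serine residues. PARG then degrades the chains. PARP3 is also activated by breaks but adds single ADP-ribose units. PARP4 is the vault PARP, a component of the large cytoplasmic vault particles, and TNKS and TNKS2 are the tankyrases, which modify proteins such as axin and act at telomeres. Only RNA was measured here, so the values bear on transcript abundance and not on protein, trapping or enzyme activity. In bulk samples of this kind, fewer cells of a type and less RNA per cell cannot be told apart.

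PARP1, PARP2 and HPF1 work together at breaks and fell with both olaparib doses at day 5 of the time course, so their promoter windows are shown first. Each window holds 250 bases before and 50 bases after the RefSeq start on GRCh38.p14, read 5′ to 3′ on the gene's strand. Capitals mark matches on either strand to GGGCGG (the GC box), CCAAT, or AGAACA (a steroid hormone response half-site).

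PARP1: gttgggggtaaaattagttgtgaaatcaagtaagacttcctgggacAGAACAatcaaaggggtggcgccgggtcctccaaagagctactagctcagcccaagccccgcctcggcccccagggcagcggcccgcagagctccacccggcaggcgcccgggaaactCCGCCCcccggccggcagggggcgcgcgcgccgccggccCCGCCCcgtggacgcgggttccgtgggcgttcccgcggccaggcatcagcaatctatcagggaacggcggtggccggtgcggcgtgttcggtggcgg
PARP2: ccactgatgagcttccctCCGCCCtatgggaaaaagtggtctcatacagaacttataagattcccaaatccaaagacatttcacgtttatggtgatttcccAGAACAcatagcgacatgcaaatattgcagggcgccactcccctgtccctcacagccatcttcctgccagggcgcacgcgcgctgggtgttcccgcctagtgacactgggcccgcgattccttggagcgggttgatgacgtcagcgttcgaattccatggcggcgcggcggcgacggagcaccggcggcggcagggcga
HPF1: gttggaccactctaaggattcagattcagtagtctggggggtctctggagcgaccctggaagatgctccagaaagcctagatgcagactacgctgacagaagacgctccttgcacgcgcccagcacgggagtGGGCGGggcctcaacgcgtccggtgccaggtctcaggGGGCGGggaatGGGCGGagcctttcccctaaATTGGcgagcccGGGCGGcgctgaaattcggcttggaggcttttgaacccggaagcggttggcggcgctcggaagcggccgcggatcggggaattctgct

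The windows lie at chr1:226408044-226408343 (minus strand) for PARP1, chr14:20343385-20343684 (plus strand) for PARP2 and chr4:169757895-169758194 (minus strand) for HPF1. The GC box was matched 2 times for PARP1, 1 time for PARP2 and 4 times for HPF1. It is common, being present in 45% of 35116 RefSeq promoters of the same length. These leave out chromosome 8, here and in the shares of all promoters below. AGAACA was matched in PARP1 and PARP2 and in 14.8% of all promoters, and CCAAT in HPF1 and 34.6% of all promoters. The letters TTTCGCGC, TTTGGCGC and TTTCCCGC, forms of an E2F motif, were in none of these windows and in 2.74% of all promoters. No matches overlapped each other in these windows. Among the other members the windows of PARP3, PARG and TNKS2 were also read, and of these PARG alone held a match, to CCAAT. These matches are descriptions of the sequence and not sites of binding.

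By the GENCODE annotation of GRCh38, PARP1 (ENSG00000143799) spans bases 226360210 to 226408154 of chromosome 1, PARP2 (ENSG00000129484) spans 20343615 to 20357904 of chromosome 14 and HPF1 (ENSG00000056050) spans 169729470 to 169757944 of chromosome 4. PARG (ENSG00000227345) lies at 49818279 to 49970203 of chromosome 10, the chromosome that also carries TNKS2 (ENSG00000107854, 91798426 to 91865475). PARP3 (ENSG00000041880) occupies 51942345 to 51948867 of chromosome 3, PARP4 (ENSG00000102699) 24420931 to 24512778 of chromosome 13 and TNKS (ENSG00000173273) 9555912 to 9782346 of chromosome 8.

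Between genes, levels were compared only per length, as counts per kilobase of the canonical transcript scaled to sum to 1000000 in a library. Whether the deposited counts were already corrected for length is not given in the sources used here, which bears on these levels. On that scale PARP1 stood far above the other members in panel DMSO, at 306 ± 4.94 (SD, n = 3), the 99.0 percentile of all detected genes. PARP4 followed at 61.1 ± 1.66, TNKS2 at 58.4 ± 0.520, PARP2 at 42 ± 1.07, HPF1 at 41.1 ± 2.08, PARG at 33.6 ± 1.04, TNKS at 15.8 ± 0.367 and PARP3 at 9.19 ± 1.08. PARP1 was first and PARP3 last of the 8 in all 3 DMSO groups. All later levels are CPM, counts per 1000000 counts of a library after scaling by the trimmed mean of M values (TMM), which compare 1 gene between libraries. Counts behind these levels ran from 279 (the lowest library for PARP3) to 28164 (the highest for PARP1). The ratio between the highest and lowest of the 13 group means was 2.54 for PARP2, 2.23 for PARP3, 2.01 for HPF1, 2.00 for PARP4, 1.63 for PARP1, 1.44 for TNKS, 1.39 for TNKS2 and 1.19 for PARG.

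The libraries carried the prostate epithelium marker KLK3 (292 to 1900 CPM). Summed levels of marker lists of other cells ran from 12 to 24.3 CPM for 6 fibroblast genes, 2.97 to 31.0 for 5 leukocyte genes and 7.73 to 22.5 for 4 endothelial genes, most of it from COL1A1, CD68 and VWF. Among the others, COL1A2, DCN, LUM, CD3E, PECAM1 and KDR had at most 4 counts in any library, CDH5 at most 10, COL3A1 29, PTPRC 47 and LYZ 61, and PDGFRB had 37 to 109. Known response genes of the drugs were read beside the labels. KLK3, an androgen-induced gene, changed by -1.58 ± 0.045 (SE) on the log2 scale with abiraterone and -2.25 ± 0.046 (SE) with enzalutamide, and CDKN1A, a p53 target, by 2.18 ± 0.053 (SE) with panel olaparib and 4.15 ± 0.026 (SE) with 5 µM olaparib at day 5. Some members have near copies: the pseudogene PARGP1 held 18 to 62 counts per library, about 1.51% (panel) and 1.38% (time course) of the PARG counts. How many reads fit both genes was not measured, so the uncertainty this adds to the PARG values is not known. PARP1P1 and PARP4P1 held at most 15 and 25 counts.

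With 5 µM olaparib at day 5, PARP2, HPF1 and PARP1 fell, PARP4 rose to about the double of its DMSO level, and TNKS and PARP3 rose. In edgeR's quasi-likelihood test 6 of 8 members passed an adjusted p of 0.05, 3 lower and 3 higher, beside 68.2% of all genes tested. PARG and TNKS2 did not pass.

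PARP2, the second enzyme that olaparib binds, had 38.9, 38.5 and 40.5 CPM in the 3 DMSO libraries of day 5, 31.0, 29.3 and 28.2 with 1 µM olaparib and 18.5, 18.1 and 18.4 with 5 µM. The 3 groups did not overlap and stood in order of dose. Against DMSO the log2 fold change was -0.42 ± 0.038 (SE) at 1 µM (adjusted p = 1.07e-11) and -1.10 ± 0.041 (SE) at 5 µM (adjusted p = 1.44e-23), so that PARP2 fell by 53.4% at the higher dose.

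HPF1, which these enzymes need for serine modification, had 22.5, 20.8 and 21.5 CPM in day 5 DMSO, 16.2, 16.8 and 17.7 with 1 µM and 11.4, 11.6 and 12.2 with 5 µM. Again no library of one group reached the range of another. HPF1 changed by -0.36 ± 0.051 (SE) at 1 µM (adjusted p = 2.91e-07) and -0.88 ± 0.055 (SE) at 5 µM (adjusted p = 8.45e-17). PARP1 itself, the main target of the drug, was measured at 622, 611 and 620.3 CPM in DMSO, 559, 559 and 558 with 1 µM and 403, 414 and 404 with 5 µM. Its groups were likewise separate, and its log2 fold changes were smaller than those of PARP2 and HPF1, at -0.15 ± 0.017 (SE) (adjusted p = 3.79e-09) and -0.60 ± 0.017 (SE) (adjusted p = 4.29e-27). The difference in size between these genes was not tested.

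PARP4, the vault PARP, moved the other way. It had 123, 119 and 124 CPM in day 5 DMSO, 161, 159 and 158 with 1 µM and 237, 249.9 and 244 with 5 µM, with no overlap. The rise was 0.38 ± 0.026 (SE) at 1 µM (adjusted p = 3.23e-15) and 1.00 ± 0.026 (SE) at 5 µM (adjusted p = 6.97e-29). PARP3, which joins the response to double-strand breaks, had 8.50, 8.26 and 9.18 CPM in DMSO, 9.67, 10.5 and 10.4 with 1 µM and 10.0, 10.9 and 11.0 with 5 µM. Both olaparib groups lay above DMSO (0.23 ± 0.07 (SE) and 0.30 ± 0.07 (SE) on the log2 scale, adjusted p = 0.00608 and 0.000222) but overlapped each other.

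TNKS, tankyrase 1, had 63.0, 61.6 and 59.2 CPM in DMSO and 72.4, 76.0 and 71.9 with 5 µM olaparib, without overlap, a rise of 0.26 ± 0.032 (SE) (adjusted p = 3.12e-09). Its value at 1 µM, 0.075 ± 0.032 (SE), missed the threshold (adjusted p = 0.0519) and passed with a filter at 1 CPM, in the fit of only the groups compared, and without DMSO replicate 1 or 1 µM replicate 3. TNKS2, tankyrase 2, had 169.7, 175 and 166 CPM in DMSO and 168, 165 and 165 with 5 µM, and PARG had 61.5, 58.6 and 62.5 and 61.0, 62.2 and 58.2. For both genes the groups overlapped. The 95% intervals of their log2 fold changes at 5 µM were -0.09 to 0.023 and -0.077 to 0.06. With total-count scaling both genes passed the threshold as lower.

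At 1 µM and day 5, the same drug gave 5 of 8 members past the threshold, beside 46.3% of all genes. HPF1, PARP1 and PARP2 fell and PARP3 and PARP4 rose. The step from 1 to 5 µM at day 5 changed 5 of 8 members as well, beside 53.6% of genes: PARP2 by -0.68 ± 0.044 (SE), HPF1 by -0.52 ± 0.058 (SE), PARP1 by -0.45 ± 0.017 (SE), PARP4 by 0.62 ± 0.025 (SE) and TNKS by 0.19 ± 0.032 (SE). PARP3 did not differ detectably between the doses (0.072 ± 0.069 (SE), 95% interval -0.068 to 0.21, adjusted p = 0.402).

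**Figure D1:**
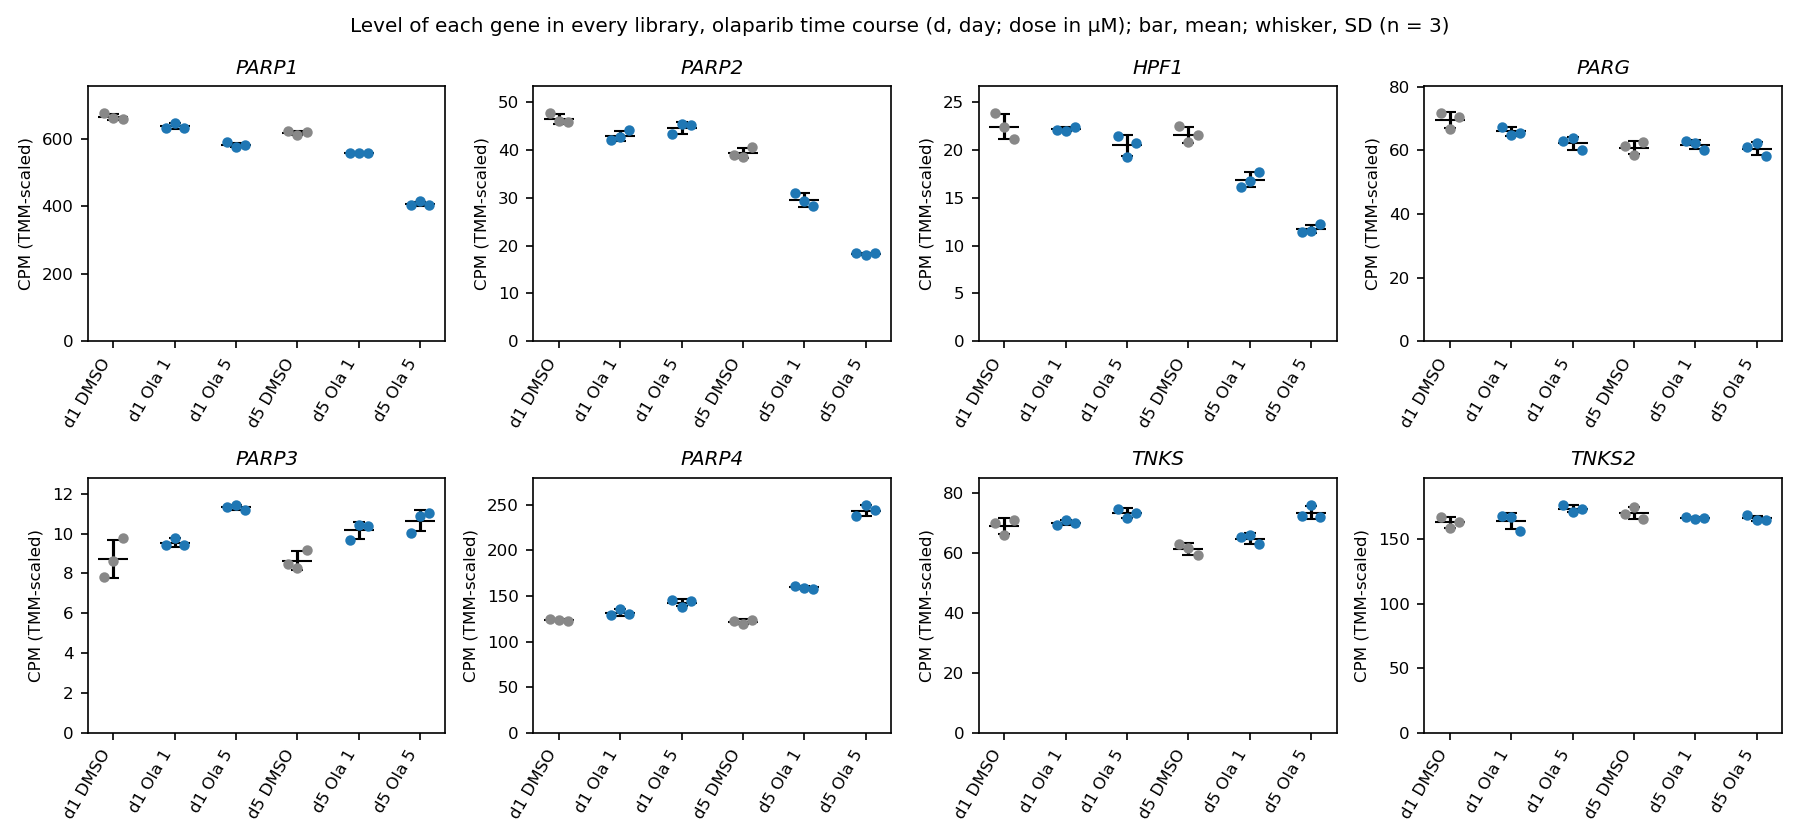
Level of each member in every library of the olaparib time course, in TMM-scaled CPM (y axis, starting at 0), by group (x axis; d, day; dose in µM). Points are libraries, bars group means and whiskers the SD of 3 libraries. At day 5 PARP2 steps down from a mean of 39.3 ± 1.08 to 18.3 ± 0.205 CPM and PARP4 up from 122 ± 2.40 to 244 ± 6.37 CPM, while PARG and TNKS2 stay within their spread.

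Proliferation genes moved with these results. Of 10 proliferation markers (among them MKI67, TOP2A, MCM2 and PCNA), 10 were lower at 1 µM and day 5 (median log2 fold change -0.46) and 10 were lower at 5 µM and day 5 (median -2.05), where MKI67 changed by -2.90 ± 0.04 (SE). The summed level of the list ran from 518 to 2494 CPM over the 39 libraries. The part of cycling cells in the falls of PARP1, PARP2 and HPF1 was not tested.

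At day 1 the same doses were measured against their own DMSO. With 5 µM, 7 of 8 members passed (beside 45% of all genes), and with 1 µM, 3 of 8 (15.8% of all genes). PARP1 had 675, 660.0 and 658 CPM in day 1 DMSO, 631, 646 and 633 with 1 µM and 589, 576 and 582 with 5 µM. These groups did not overlap, and the log2 fold changes were -0.067 ± 0.017 (SE) (adjusted p = 0.00585) and -0.19 ± 0.017 (SE) (adjusted p = 1.01e-11). PARP3 had 7.83, 8.62 and 9.76 CPM in DMSO and 11.3, 11.4 and 11.2 with 5 µM, separate groups, a rise of 0.37 ± 0.069 (SE) (adjusted p = 2.72e-05). PARP4 rose by 0.088 ± 0.026 (SE) at 1 µM and 0.21 ± 0.026 (SE) at 5 µM. At 1 µM the PARP1 call was lost without a filter on low counts, in the fit of only the groups compared, with total-count scaling and without DMSO replicate 1, and the PARP4 call without DMSO replicate 3 or 1 µM replicate 2.

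PARP2, the member with the deepest fall at day 5, had 47.6, 46.0 and 45.7 CPM in day 1 DMSO, 42, 42.6 and 44.1 with 1 µM and 43.2, 45.5 and 45.3 with 5 µM. It passed at 1 µM (-0.12 ± 0.035 (SE), adjusted p = 0.0152), a call lost with total-count scaling and without DMSO replicate 1 or 1 µM replicate 1 or 2, and not at 5 µM (-0.059 ± 0.035 (SE), adjusted p = 0.178), and the 2 doses did not differ detectably (95% interval of the difference -0.011 to 0.13). PARG had 71.6, 66.8 and 70.4 CPM in DMSO and 62.9, 63.9 and 60.0 with 5 µM, all lower with the drug, and fell by 10.6% (adjusted p = 0.000108). HPF1 (-0.13 ± 0.05 (SE)), TNKS (0.086 ± 0.031 (SE)) and TNKS2 (0.089 ± 0.028 (SE)) passed with small values, and the HPF1 libraries overlapped DMSO. Without replicate 2 of day 1 DMSO, 4 members instead of 7 passed at 5 µM (HPF1, TNKS at 0.051 and TNKS2 were lost). HPF1 was also lost without DMSO replicate 1 (-0.083) or 5 µM replicate 2, with total-count scaling (-0.082), a filter at 1 CPM or a fit of only the groups compared, and TNKS with DESeq2 or without 5 µM replicate 1. With total-count scaling TNKS was 0.13 and TNKS2 0.14. At 1 µM the count was 1 without replicate 1 of day 1 DMSO, without replicate 2 of the 1 µM group, or with total-count scaling.

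Between the doses at day 1, 4 of 8 members differed (beside 28.8% of genes). PARP1 was lower at 5 than at 1 µM by -0.13 ± 0.017 (SE), and PARP3 (0.25 ± 0.068 (SE)), PARP4 (0.12 ± 0.026 (SE)) and TNKS2 (0.086 ± 0.028 (SE)) were higher. The TNKS2 difference did not pass without replicate 3 of the 1 µM group (0.052) or replicate 1 of the 5 µM group (0.077). Proliferation markers were mixed at day 1, with 5 lower and 2 higher of 10 at 1 µM (median -0.07) and 6 lower and 2 higher at 5 µM (median -0.11).

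Whether the olaparib effect differed between days was tested as an interaction, the day 5 log2 fold change minus the day 1 log2 fold change. At 5 µM, 7 of 8 members differed (beside 54.9% of genes), with PARP2 at -1.04 ± 0.054 (SE), HPF1 at -0.75 ± 0.074 (SE), PARP1 at -0.41 ± 0.025 (SE) and PARP4 at 0.79 ± 0.036 (SE). The smaller differences were TNKS at 0.18 ± 0.044 (SE), PARG at 0.15 ± 0.047 (SE) and TNKS2 at -0.12 ± 0.039 (SE). With total-count scaling the median log2 value of all genes in this comparison shifted from -0.022 to -0.15, PARG (0.023) and TNKS (0.044) no longer passed, and TNKS2 was -0.25. At 1 µM, 4 of 8 differed (beside 29.8% of genes): HPF1 at -0.34 ± 0.071 (SE), PARP2 at -0.30 ± 0.052 (SE), PARP4 at 0.30 ± 0.036 (SE) and PARP1 at -0.082 ± 0.024 (SE), which did not pass without a filter on low counts and was -0.13 with total-count scaling. PARP3 did not pass at either dose, with 95% intervals of -0.09 to 0.31 and -0.27 to 0.13.

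Time alone also moved some members. In DMSO, 4 of 8 were lower at day 5 than at day 1 (beside 24.5% of genes tested), namely PARP2 (-0.25 ± 0.035 (SE)), PARG (-0.20 ± 0.033 (SE)), TNKS (-0.17 ± 0.032 (SE)) and PARP1 (-0.11 ± 0.017 (SE)). All 10 proliferation markers were lower too (median -0.15). The part of those markers in the lower PARP1 and PARP2 was not tested.

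In the panel, 1 µM olaparib and 10 nM talazoparib were each given alone for 5 days. PARP2 and HPF1 were lower and PARP3 and PARP4 higher with either drug. For olaparib 4 of 8 members passed (beside 35.6% of all genes) and for talazoparib 6 of 8 (beside 33.8%). These 2 comparisons share the same 3 DMSO libraries.

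PARP2 had 35.2, 37.0 and 36.8 CPM in panel DMSO, 28.6, 30.9 and 29.3 with olaparib and 28.0, 27.6 and 30.9 with talazoparib. All 6 treated libraries lay below DMSO, with log2 fold changes of -0.28 ± 0.049 (SE) (adjusted p = 1.7e-05) and -0.32 ± 0.048 (SE) (adjusted p = 2.3e-06). PARP4 had 158, 161 and 153 CPM in DMSO, 189, 183 and 178 with olaparib and 182, 182 and 189.7 with talazoparib, again without overlap with DMSO (0.24 ± 0.028 (SE) and 0.24 ± 0.028 (SE)). HPF1 had 23.8, 24.8 and 22.4 CPM in DMSO, 18.9, 21.8 and 20.6 with olaparib and 19.6, 19.0 and 22.3 with talazoparib. Its fall of 12.6% and 13% passed at adjusted p = 0.0167 and 0.0138, but neither passed without replicate B of DMSO, nor without replicate A of olaparib and replicate B of talazoparib, respectively.

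PARP3 had 11.5, 9.71 and 9.30 CPM in panel DMSO, 12.6, 11.8 and 12.8 with olaparib and 13, 12.2 and 12.3 with talazoparib. Both treated groups were above DMSO, by 0.31 ± 0.08 (SE) and 0.32 ± 0.079 (SE). PARP1, the principal drug target, had 568, 575 and 588 CPM in DMSO, 553, 554 and 548 with olaparib and 543, 536 and 543 with talazoparib. Every treated library was below every DMSO library, yet the differences were small: -0.078 ± 0.021 (SE) with talazoparib (adjusted p = 0.00378, or 0.123 without a filter on low counts, with a value of -0.12 with total-count scaling) and -0.049 ± 0.021 (SE) with olaparib, which missed the threshold (adjusted p = 0.0707) and passed it with DESeq2, in 3 other settings and without olaparib replicate A or B. PARG (0.012 ± 0.035 (SE) and -0.014 ± 0.035 (SE)) and TNKS2 (-0.054 ± 0.026 (SE) and -0.05 ± 0.026 (SE)) did not pass for either drug. All treated libraries of TNKS2 lay below DMSO, and it passed as lower with total-count scaling for either drug, for olaparib with a filter at 1 CPM or without olaparib replicate B (-0.085), and for talazoparib without talazoparib replicate A (-0.077). TNKS passed as lower with talazoparib (-0.11 ± 0.038 (SE), adjusted p = 0.0224) but not without DMSO replicate B or without a filter on low counts. All 10 proliferation markers were lower with either drug (median -0.31 with olaparib and -0.39 with talazoparib), and their part in the lower PARP1, PARP2 and HPF1 was not tested.

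Talazoparib and olaparib were also compared directly, at doses that differ (10 nM and 1 µM). None of the 8 members passed in edgeR, beside 8.36% of all genes, with 1 of 8 at an unadjusted p under 0.05 and 0 of 8 in DESeq2. The intervals of the log2 difference, talazoparib minus olaparib, were -0.072 to 0.014 for PARP1, -0.14 to 0.062 for PARP2, -0.14 to 0.13 for HPF1, -0.15 to 0.16 for PARP3 and -0.049 to 0.063 for PARP4. For TNKS, the member with an unadjusted p under 0.05, the interval was -0.17 to -0.015 (adjusted p = 0.139), and the talazoparib and olaparib libraries did not overlap. The intervals bound the differences and do not show that the treatments act alike.

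The 1 µM olaparib effect at day 5 was measured in both experiments, each against its own DMSO. Of the 8 members PARP4 alone differed (beside 1.94% of all genes), with a log2 fold change of 0.24 in the panel and 0.38 in the time course, a difference of -0.16 ± 0.038 (SE) (adjusted p = 0.0125). This call was lost without DMSO replicate B of the panel or day 5 DMSO replicate 2 of the time course. PARP2 (-0.28 and -0.42), HPF1 (-0.20 and -0.36) and PARP1 (-0.049 and -0.15) were nominally less negative in the panel, with differences that did not pass. With DESeq2 or total-count scaling PARP1 passed as well, which makes 2 members.

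Of the androgen-pathway drugs, abiraterone and enzalutamide each changed 6 of 8, beside 52.9% and 53.3% of all genes, and again share the DMSO libraries. PARP3 and TNKS2 rose and PARG and PARP1 fell with either drug.

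PARP3 had 16.8, 16.4 and 16.0 CPM with abiraterone and 18.4, 18 and 17.9 with enzalutamide, far from the 11.5, 9.71 and 9.30 CPM of DMSO. The log2 fold changes were 0.69 ± 0.078 (SE) (adjusted p = 2.19e-09) and 0.84 ± 0.077 (SE) (adjusted p = 1.65e-11), rises of 61.6% and 78.5%. This was the member with the largest rise in either comparison.

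TNKS2 had 172, 175 and 172 CPM in DMSO, 231, 224 and 224 with abiraterone and 195, 199 and 199 with enzalutamide. The 3 groups were separate, and the rise was 0.38 ± 0.026 (SE) with abiraterone (adjusted p = 7.18e-15) and 0.19 ± 0.026 (SE) with enzalutamide (adjusted p = 1.42e-07). Its paralog TNKS had 70.3, 73.7 and 72.6 CPM in DMSO, 74.1, 81.0 and 75.9 with abiraterone and 83.5, 84.5 and 81.4 with enzalutamide. TNKS rose with enzalutamide (0.20 ± 0.037 (SE), adjusted p = 2.3e-05), and with abiraterone its value of 0.087 ± 0.038 (SE) was just short of the threshold (adjusted p = 0.0524). It passed with DESeq2, RLE scaling, total-count scaling (0.16), no filter or a filter at 1 CPM, and without DMSO replicate B or abiraterone replicate A (0.13), and was 0.042 without abiraterone replicate B. Tested against each other, enzalutamide gave more TNKS (0.11 ± 0.037 (SE), adjusted p = 0.0275) and less TNKS2 (-0.20 ± 0.026 (SE), adjusted p = 5.09e-07) than abiraterone, the 2 of 8 members that passed beside 19.8% of genes. The TNKS difference was lost when the fit held only the 2 groups, with total-count scaling, or without 1 of 4 of the 6 libraries (abiraterone A or C, enzalutamide A or B).

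PARG had 66.9, 70.9 and 67.3 CPM in DMSO, 61.8, 59.0 and 59.6 with abiraterone and 60.2, 59.6 and 60.2 with enzalutamide. All treated libraries were below DMSO, and PARG fell by 12.4% (adjusted p = 2.21e-05) and 12.5% (adjusted p = 1.62e-05). PARP1 had 525, 529 and 531 CPM with abiraterone and 520.0, 547 and 529.9 with enzalutamide, also below DMSO, and changed by -0.13 ± 0.021 (SE) and -0.12 ± 0.021 (SE). PARP4 rose by 0.11 ± 0.028 (SE) and 0.13 ± 0.028 (SE). With total-count scaling PARP1 was -0.065 and -0.067 with the 2 drugs, and with abiraterone PARG was -0.12 and PARP4 0.18. PARP2 did not pass, with intervals of -0.15 to 0.046 for abiraterone and -0.075 to 0.12 for enzalutamide, and HPF1 overlapped DMSO with either drug. Its value with abiraterone, -0.16 ± 0.065 (SE), passed at adjusted p = 0.0432 and was lost in DESeq2 and in most other settings. Proliferation markers were mixed, with 3 higher and 2 lower of 10 with abiraterone (median -0.047) and 3 higher and 1 lower with enzalutamide (median -0.0056).

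**Figure D2:**
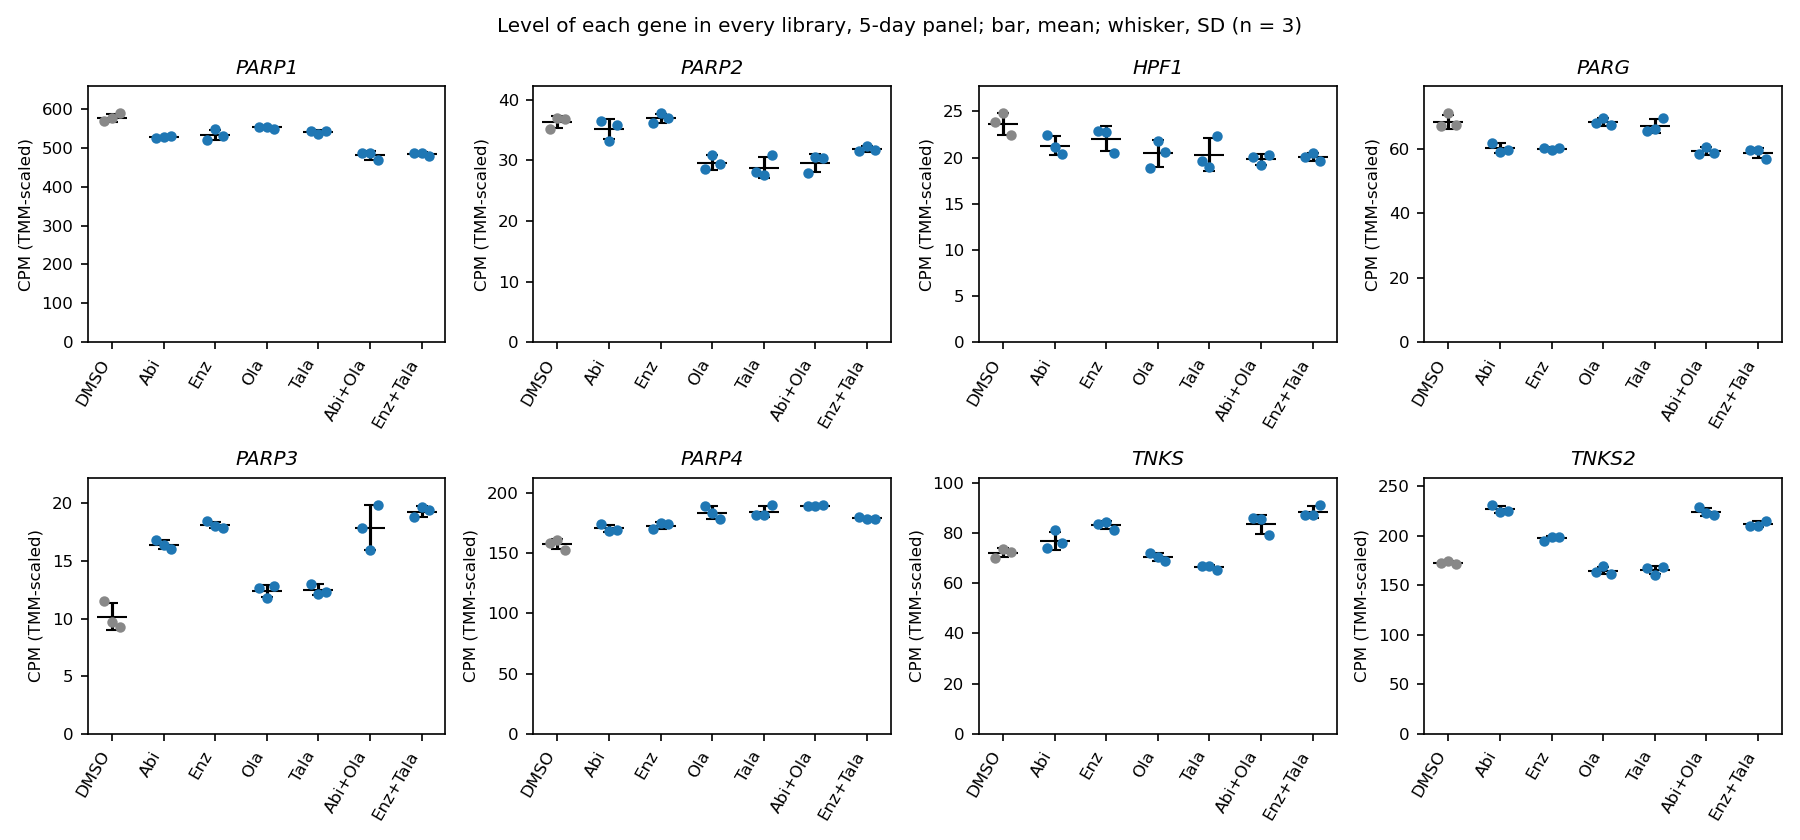
Level of each member in every library of the panel, in TMM-scaled CPM (y axis, starting at 0), by treatment (x axis; Abi, abiraterone; Enz, enzalutamide; Ola, olaparib; Tala, talazoparib). Points are libraries, bars group means and whiskers the SD of 3 libraries. PARP3 and TNKS2 are high in the 4 groups with abiraterone or enzalutamide, and PARP2 is low in the 4 groups with olaparib or talazoparib.

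Both combinations changed all 8 members against DMSO, in the same directions (4 lower and 4 higher), beside 62.2% of all genes where abiraterone was paired with olaparib, and 62.4% where enzalutamide was paired with talazoparib. PARP1 had 486, 487 and 468 CPM with abiraterone plus olaparib and 485, 486 and 478 with enzalutamide plus talazoparib. These were the lowest PARP1 levels of the panel, below every library of the other 5 groups, at -0.25 ± 0.021 (SE) (adjusted p = 1.81e-12) and -0.26 ± 0.021 (SE) (adjusted p = 4.28e-13) against DMSO. PARP1 was lower in the combination than with abiraterone (-0.12 ± 0.021 (SE)), olaparib (-0.20 ± 0.021 (SE)), enzalutamide (-0.14 ± 0.021 (SE)) or talazoparib (-0.18 ± 0.021 (SE)) alone. With total-count scaling the differences from olaparib and talazoparib were -0.12 and -0.10.

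PARP3 had 17.8, 15.9 and 19.9 CPM with abiraterone plus olaparib and 18.8, 19.7 and 19.4 with enzalutamide plus talazoparib. Against DMSO that was 0.83 ± 0.078 (SE) and 0.92 ± 0.076 (SE), and it exceeded the PARP inhibitor alone by 0.52 ± 0.075 (SE) and 0.60 ± 0.072 (SE). Against the androgen-pathway drug alone the difference did not pass (0.14 ± 0.074 (SE) with interval -0.011 to 0.29, and 0.087 ± 0.07 (SE) with interval -0.056 to 0.23). Without replicate B of abiraterone plus olaparib, the first of these was 0.23 and passed (adjusted p = 0.028), and without replicate C it was 0.053. PARG followed the same order, lower than with the PARP inhibitor alone (-0.20 ± 0.035 (SE) and -0.22 ± 0.034 (SE)) and not detectably different from the androgen-pathway drug alone (intervals -0.073 to 0.073 and -0.11 to 0.034). The first pair of PARG values was -0.12 and -0.13 with total-count scaling.

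PARP2 showed the reverse. It had 27.9, 30.6 and 30.4 CPM with abiraterone plus olaparib and 31.5, 32.5 and 31.8 with enzalutamide plus talazoparib, below DMSO by -0.28 ± 0.049 (SE) and -0.19 ± 0.048 (SE). It was lower than with abiraterone (-0.23 ± 0.05 (SE)) or enzalutamide (-0.22 ± 0.047 (SE)) alone. Against olaparib alone it did not pass (0.002 ± 0.05 (SE), interval -0.099 to 0.10), and against talazoparib alone it was higher (0.12 ± 0.048 (SE), adjusted p = 0.0258, lost without talazoparib replicate B, and 0.20 without talazoparib replicate C or 0.21 with total-count scaling).

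TNKS had 85.9, 85.6 and 79.1 CPM with abiraterone plus olaparib and 87.1, 87.2 and 91.2 with enzalutamide plus talazoparib, above all DMSO libraries (0.23 ± 0.038 (SE) and 0.29 ± 0.037 (SE)). TNKS2 stood at 229, 223 and 221 and 209.6, 210.1 and 215 CPM, 0.39 ± 0.026 (SE) and 0.28 ± 0.026 (SE) against DMSO. Both tankyrase genes were higher in the combination than with the PARP inhibitor alone (TNKS by 0.25 and 0.39, TNKS2 by 0.45 and 0.33). HPF1 was lower than DMSO by -0.24 ± 0.066 (SE) and -0.24 ± 0.064 (SE) and did not pass against any single agent, though without enzalutamide replicate C it passed as lower than with enzalutamide (-0.19). PARP4 was higher than DMSO by 0.28 ± 0.028 (SE) and 0.18 ± 0.028 (SE), higher than with abiraterone alone (0.17 ± 0.028 (SE)), and -0.065 ± 0.027 (SE) against talazoparib alone, a call that DESeq2 and the replicate block kept and that every other setting lost. It was lost without any 1 of the 6 libraries (-0.025 without talazoparib replicate C), and its sign turned with total-count scaling. With abiraterone plus olaparib against olaparib alone, PARP4 was 0.046 and did not pass (adjusted p = 0.158). There it passed as higher with total-count scaling (0.13), with a filter at 1 CPM (0.074) and without olaparib replicate A (0.081).

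In counts, abiraterone plus olaparib differed from abiraterone in 4 of 8 members (beside 29.2% of genes) and from olaparib in 5 of 8 (56.6%). The count against olaparib was 6 with a filter at 1 CPM or total-count scaling. Without 1 library the counts were 3 to 5 against abiraterone and 5 to 6 against olaparib. Enzalutamide plus talazoparib differed from enzalutamide in 3 of 8 (34.4%; 4 with DESeq2, RLE scaling, a filter at 1 CPM or the fit of only the groups compared, where TNKS, at 0.086 ± 0.036 (SE), passed as well, as it did without replicate A of the combination) and from talazoparib in 7 of 8 (58.8%), or 6 of 8 without the PARP4 call above and 5 to 6 of 8 without 1 library. TNKS, higher with abiraterone plus olaparib than with abiraterone by 0.14 ± 0.037 (SE), did not pass without abiraterone replicate A. Of the proliferation markers, 7 of 10 were lower than in DMSO in the first combination and 5 of 10 in the second, with 2 higher in each, and their part in the results for PARP1, PARP2 and HPF1 was not tested.

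**Figure D3:**
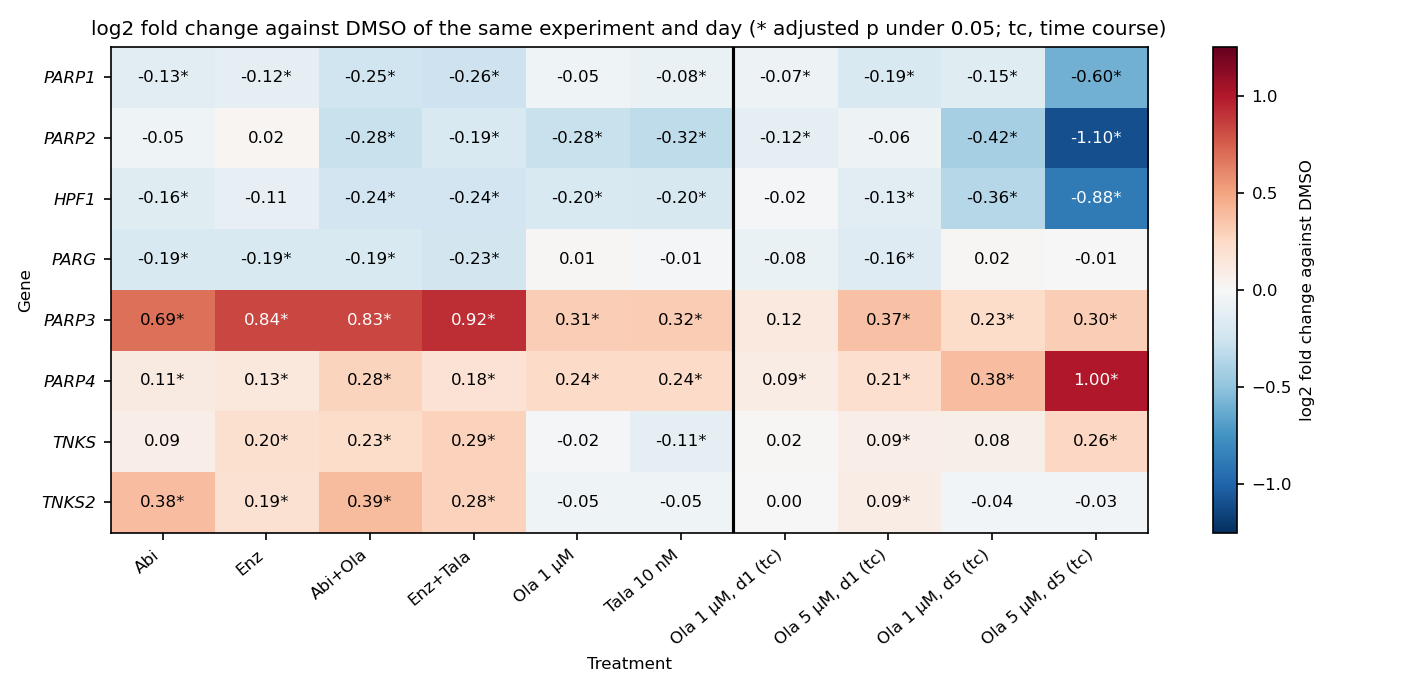
log2 fold change of each member (rows) against DMSO of the same experiment and day, for 10 treatments (columns; tc, time course; d, day); an asterisk marks an adjusted p under 0.05. Red is higher and blue lower, and values run from -1.10 for PARP2 to 1.00 for PARP4, both with 5 µM olaparib at day 5. The 6 columns left of the line share 1 DMSO group.

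Whether a combination departed from the sum of its single agents on the log2 scale was tested as an interaction. For enzalutamide and talazoparib 3 of 8 members departed (beside 12.6% of genes). TNKS ended above the sum by 0.20 ± 0.052 (SE) (adjusted p = 0.0104): talazoparib alone gave -0.11, enzalutamide alone 0.20, and both 0.29. TNKS2 ended above by 0.15 ± 0.037 (SE) (adjusted p = 0.00661), and PARP4 below by -0.20 ± 0.039 (SE) (adjusted p = 0.000556), with 0.24, 0.13 and 0.18 for talazoparib, enzalutamide and both.

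For abiraterone and olaparib, TNKS alone departed, at 0.16 ± 0.053 (SE) (adjusted p = 0.0429), beside 12.8% of genes. It was lost without a filter on low counts and in 8 of the 12 fits that left out a library (DMSO B or C, abiraterone A or C, olaparib B or C, combination A or B), where its value was 0.12 to 0.16. For PARP1 the departures were -0.067 ± 0.03 (SE) and -0.064 ± 0.03 (SE), which did not pass, with intervals of -0.13 to -0.0057 and -0.13 to -0.0036. PARP2 had intervals of -0.087 to 0.20 and -0.035 to 0.24, PARP3 -0.39 to 0.05 and -0.45 to -0.017, and PARP3 passed for enzalutamide and talazoparib without DMSO replicate A (-0.33).

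**Figure D4:**
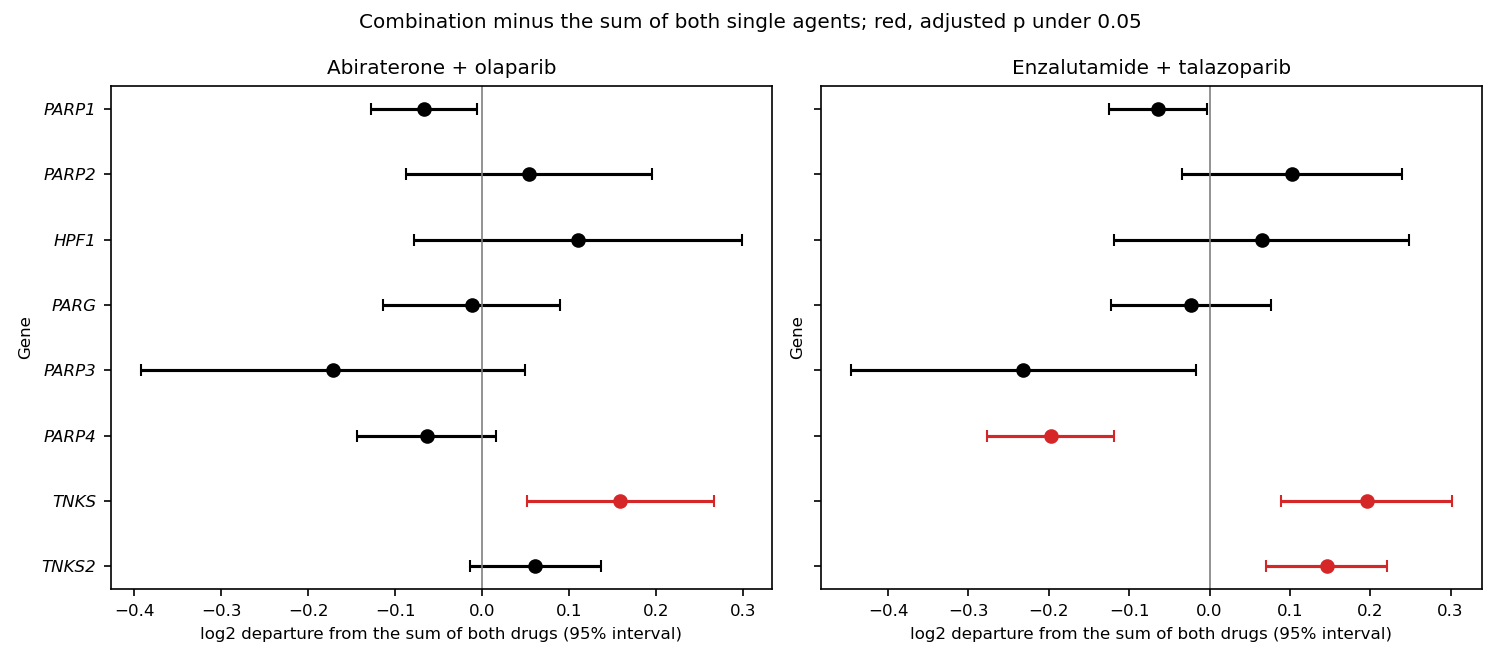
Departure of each combination from the sum of its single agents (x axis, log2, point with 95% interval) for each member (y axis); red points passed an adjusted p of 0.05. TNKS lies above 0 in both combinations, at 0.16 and 0.20, and PARP4 below 0 with enzalutamide plus talazoparib, at -0.20.

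Other genes of the pathway were read as lists. Of 9 tested among the other PARP family members, 4 were higher and 2 lower with 5 µM olaparib at day 5, beside 68.2% of all genes tested. With enzalutamide 5 were higher and 3 lower, beside 53.3%. PARP8 was lower with 5 µM olaparib at day 5 (-1.44 ± 0.079 (SE)), and PARP10 was higher there (0.90 ± 0.049 (SE)) and with abiraterone plus olaparib (0.98 ± 0.054 (SE)). PARP14, a regulator of interferon and cytokine signalling, was higher with enzalutamide (1.15 ± 0.073 (SE)).

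Of 9 other ADP-ribose hydrolases and processing enzymes tested, 3 were lower with abiraterone (beside 52.9% of all genes called in either direction), and 6 were lower and 2 higher with enzalutamide plus talazoparib (beside 62.4%). NUDT16, a hydrolase that can process ADP-ribose on proteins, was lower with abiraterone plus olaparib (-0.77 ± 0.035 (SE)) and enzalutamide plus talazoparib (-0.76 ± 0.035 (SE)), a fall beside that of PARG in the same libraries. MACROD1, which removes single ADP-ribose units, was higher (0.58 ± 0.056 (SE)) and ENPP1 lower (-0.76 ± 0.051 (SE)) with 5 µM olaparib at day 5.

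Of 11 repair factors tested that follow poly(ADP-ribose) or act with PARP1, 8 were lower and 2 higher with 5 µM olaparib at day 5 (beside 68.2% of all genes called), with a list median of -0.36 beside -0.0083 for all genes. At day 1, 2 of 11 were lower with 1 µM (beside 15.8%), and 5 were lower and 3 higher with 5 µM (beside 45%). At 5 µM and day 5 POLQ, the polymerase of end joining by microhomology, fell by the most (-2.12 ± 0.038 (SE)). It was followed by FEN1, the flap nuclease of replication and base excision repair (-1.85 ± 0.028 (SE)), and TDP1, which clears blocked strand ends (-0.63 ± 0.038 (SE)). The proliferation markers fell there too (MKI67 from a mean of 283 CPM in DMSO to 37.9), and their part in this list was not tested. In the panel 7 of 12 were lower with olaparib (beside 35.6%) and 6 of 12 with talazoparib (beside 33.8%).

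NAD+ is the substrate of every PARP. Of 13 tested genes of NAD+ supply and use, 10 were higher and 1 lower with 5 µM olaparib at day 5 (list median 0.34), beside 68.2% of all genes called. NMNAT2, which makes NAD+ in the cytoplasm, was higher there (1.92 ± 0.069 (SE)) and with abiraterone (1.06 ± 0.076 (SE)), and NADSYN1, NAD synthetase, was higher with 5 µM olaparib at day 5 (1.34 ± 0.037 (SE)). Of 12 tankyrase partners, 7 were higher and 3 lower with abiraterone and likewise with enzalutamide (list medians 0.28 and 0.21), beside 52.9% and 53.3% of all genes called. AMOTL2, an angiomotin that tankyrase marks for degradation, was higher with abiraterone (1.45 ± 0.091 (SE)), AMOT with 5 µM olaparib at day 5 (1.20 ± 0.051 (SE)) and AMOTL1 there too (2.25 ± 0.13 (SE)).

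**Figure D5:**
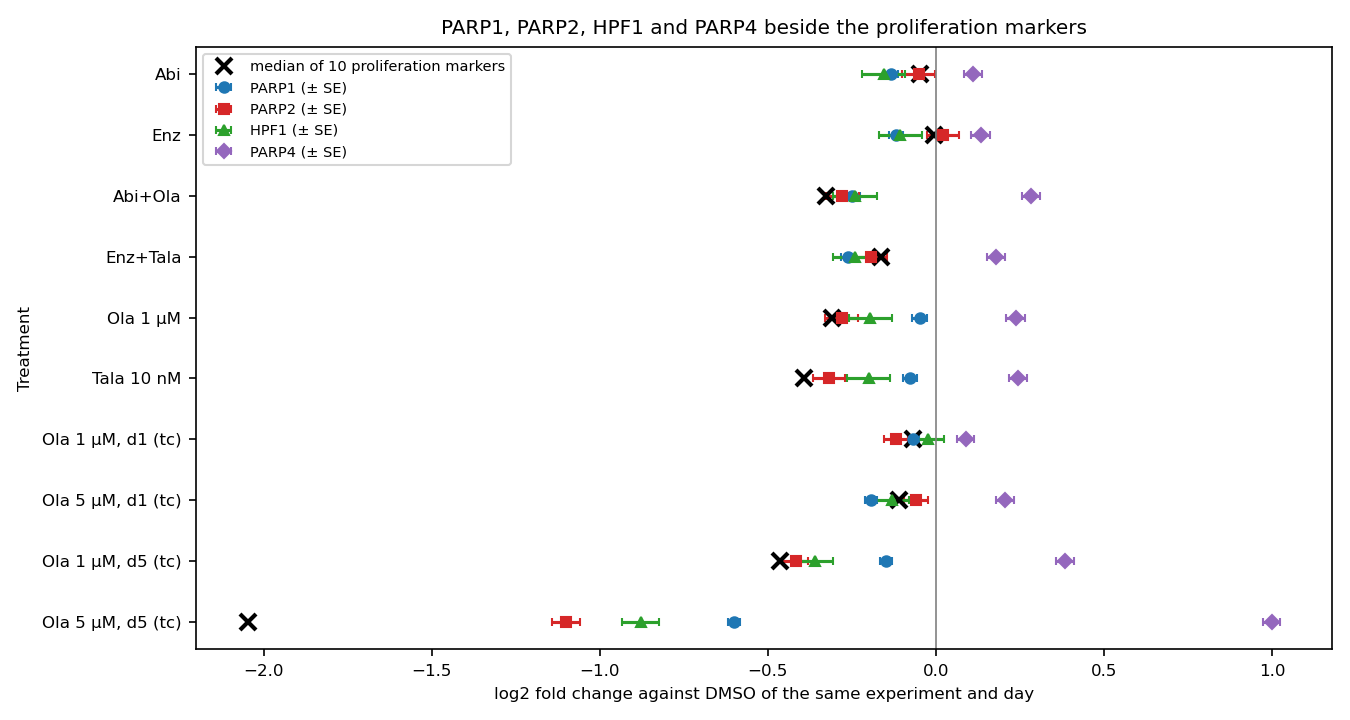
log2 fold change against DMSO of the same experiment and day (x axis; coloured points with SE) for PARP1, PARP2, HPF1 and PARP4 in 10 treatments (y axis; tc, time course; d, day), with the median of 10 proliferation markers as a black cross. At 5 µM and day 5 the cross lies at -2.05, PARP2 at -1.10 and PARP4 at 1.00.

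As a description over the 13 group means, centred within each experiment, the log2 levels of PARP1, PARP2 and HPF1 ran together (Pearson r = 0.88 for PARP1 with PARP2, 0.95 for PARP1 with HPF1 and 0.97 for PARP2 with HPF1), and PARP4 ran opposite to them (r = -0.94, -0.94 and -0.98). PARP3 ran with TNKS (0.81) and TNKS2 (0.78) and opposite to PARG (-0.83). The points share libraries, scaling and DMSO groups, and the 5 µM day 5 group lies far from the rest. Among 11204 genes, the patterns most like PARP1 were those of BLMH (0.99), HNRNPM (0.99) and PPP5C (0.99), and those most like PARP2 were IPO9 (0.99), RPA1 (0.99) and DNAJC9 (0.99). HPF1 was most like CEP78 (0.996), TRIP13 (0.99) and C1orf112 (0.99), PARP4 most like GNPTG (0.99), NBDY (0.99) and AP1M2 (0.98), and PARP3 most like TPM4 (0.99), ARHGEF17 (0.99) and DAB2IP (0.98). For PARG the nearest were ACTL10 (0.96), XPO6 (0.96) and UQCC4 (0.95), for TNKS CHD2 (0.96), MARK3 (0.96) and IGSF9B (0.96), and for TNKS2 BANK1 (0.98), ACER3 (0.98) and UGT2B17 (0.97).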

How the data were processed

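RNA of C4-2B cultures was sequenced from stranded poly(A) libraries. Per the submitters' processing notes, reads were trimmed with Trim Galore, aligned with STAR to GRCh38 and quantified with Salmon with GENCODE release 45. The strand setting of the counting is not given in the sources used here. The authors deposited estimated counts per gene as whole numbers, and how these were rounded or corrected for length is not given in the sources used here. Of 63187 gene IDs, 62666 were matched to a symbol in the reference table of gene names (positions and transcript lengths came from GENCODE 44) and the 521 others (0.120% of counts) stayed in library sizes and tests.

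From these counts, libraries were scaled by TMM, genes were filtered by edgeR's filterByExpr on the groups, and each experiment was fitted on its own (edgeR 4.0.16, robust quasi-likelihood test, R 4.3.3), with p-values adjusted by Benjamini-Hochberg over all genes tested and called under 0.05. The comparison of the olaparib effect between experiments came from 1 fit of all 39 libraries. CPM levels used TMM over all 39 libraries. The SE is the log2 fold change divided by the root of its F, and intervals are at 95%. The steps were tested on simulated counts for abiraterone against DMSO. Of 100 genes changed by 0.5 on the log2 scale 61 were called, and of 100 changed by 1, 77 were. Beside these, 4 unchanged genes were called. The mean absolute error was 0.11 and 0.10, and smaller changes were not simulated. Replicates differed beyond sampling noise (chi-square over degrees of freedom 2.11 to 5.63), so none was merged. Deviations of libraries with the same replicate label correlated at -0.065 to 0.027 in the panel and -0.13 to 0.13 in the time course, so the labels were not taken to pair libraries. Depth sets a counting error: a member's count was at least 279, and intervals and spreads cover the 3 libraries of a group only.

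Named genes were all 8 members, the 3 genes of each context list with the largest change past the threshold against DMSO and a mean of at least 100 counts, the 3 genes most like each member over the 13 groups (log2 CPM with a prior count of 2, mean CPM of at least 5), and 4 response genes, of which KLK3 and CDKN1A are printed. The members and the lists were chosen with earlier results of these data known. Alternatives were RLE scaling, total-count scaling, no filter on low counts, a filter at a mean of 1 CPM, DESeq2 1.42.0, a replicate block, fits of only the groups compared, and leaving out each library. Promoters came from RefSeq (GRCh38.p14). Those of chromosome 8, which carries TNKS, were removed before the search. The rest gave 6 of 8 members and held none for PARP4. Protein sequences were not used here.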

Additional observations from a re-analysis of the deposited data

Results flagged for a closer look

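The log2 effect of a drug differed with the day, with the second drug or between the experiments for 16 member values, each by an interaction term of edgeR's quasi-likelihood test at an adjusted p under 0.05. There were 7 of 8 members for 5 µM olaparib by day (beside 54.9% of all genes), 4 of 8 for 1 µM by day (29.8%), 3 of 8 for enzalutamide by talazoparib (12.6%), 1 of 8 for abiraterone by olaparib (12.8%) and 1 of 8 between the experiments (1.94%).

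Between day 5 and day 1, the effect of 5 µM olaparib differed by -1.04 ± 0.054 (SE) for PARP2, -0.75 ± 0.074 (SE) for HPF1, -0.41 ± 0.025 (SE) for PARP1 and 0.79 ± 0.036 (SE) for PARP4. The smaller differences at that dose were 0.18 ± 0.044 (SE) for TNKS, 0.15 ± 0.047 (SE) for PARG and -0.12 ± 0.039 (SE) for TNKS2. The effect of 1 µM olaparib differed between the days by -0.34 ± 0.071 (SE) for HPF1, -0.30 ± 0.052 (SE) for PARP2, 0.30 ± 0.036 (SE) for PARP4 and -0.082 ± 0.024 (SE) for PARP1. All 10 proliferation markers differed in the same 2 interactions, with medians of -1.88 at 5 µM and -0.41 at 1 µM, and their part in the member values was not tested.

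With talazoparib added, the effect of enzalutamide differed by -0.20 ± 0.039 (SE) for PARP4, 0.20 ± 0.052 (SE) for TNKS and 0.15 ± 0.037 (SE) for TNKS2. With olaparib added, the effect of abiraterone differed by 0.16 ± 0.053 (SE) for TNKS, a call lost in 8 of 12 fits without 1 library at values of 0.12 to 0.16. For 1 µM olaparib at day 5, the PARP4 effect in the panel minus that in the time course was -0.16 ± 0.038 (SE).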

How the results depend on the processing

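Of 192 member values, the direction and side of the threshold stayed in 188 with RLE scaling, 186 with DESeq2, 184 without a filter, 184 in fits of only the groups compared, 183 with a filter at 1 CPM and 173 with total-count scaling, where 7 fell below the threshold, 11 rose past it and 1 turned. That one was PARP4 with enzalutamide plus talazoparib against talazoparib, 0.016 instead of -0.065. Over 1392 values from fits that left out 1 library, 1331 stayed.

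The number of members past the threshold moved by over 1.5 times in 5 comparisons. The abiraterone by olaparib interaction had 0 members (instead of 1) without a filter on low counts, and 0 to 1 when 1 library was left out. Enzalutamide against abiraterone had 1 (instead of 2) in fits of only the groups compared and with total-count scaling, and 1 to 2 when 1 library was left out. For 1 µM olaparib at day 1 it was 1 (instead of 3) with total-count scaling and 1 to 4 without 1 library, and for 5 µM at day 1 it was 4 to 7 (instead of 7) without 1 library. The panel minus time course difference had 2 (instead of 1) with DESeq2 and with total-count scaling, and 0 to 1 without 1 library. The cause was not tested.

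The labels share replicate numbers only, and same-label deviations exceeded a correlation of 0.1 in 2 of 12 pairs of a treated and a DMSO library in the time course and 0 of 18 in the panel. With a replicate block, 5 members instead of 6 passed with abiraterone against DMSO (HPF1 at an adjusted p of 0.0511), and the block changed no other call of 184. With 3 libraries per group, HPF1 and PARP3, the members with the fewest counts, had the largest SEs of the panel. HPF1 at -0.16 with abiraterone barely passed and PARP3 at 0.14 for abiraterone plus olaparib against abiraterone did not, and no smaller change of either passed in the panel.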

Other observations

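Some other genes of ADP-ribose biology moved with the day or with the androgen-pathway drugs. PARP14 was higher with 5 µM olaparib at day 1 (1.01 ± 0.061 (SE), adjusted p = 2.32e-16) and stood at -0.025 ± 0.064 (SE) at day 5. The day 5 effect minus the day 1 effect was -1.03 ± 0.088 (SE) (adjusted p = 1.38e-12). NUDT16 had the opposite order, with -0.31 ± 0.029 (SE) at day 1, 0.18 ± 0.028 (SE) at day 5 and a difference of 0.50 ± 0.04 (SE) (adjusted p = 3.03e-13). In the panel NUDT16 fell with abiraterone (-0.58 ± 0.035 (SE)) and enzalutamide (-0.55 ± 0.034 (SE)), and the combinations lay below the sum of their single agents by -0.26 ± 0.049 (SE) and -0.28 ± 0.049 (SE).

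NNMT, which uses nicotinamide, the product of PARP activity, for methylation, had 97 to 139 counts in the DMSO libraries of the panel, 17 to 25 with abiraterone and 2 to 5 with enzalutamide, where the counts are too low for a fold change to be read. It had 110 to 149 counts with olaparib and 123 to 159 with talazoparib, and 0.0037 ± 0.18 (SE) and -0.076 ± 0.18 (SE) on the log2 scale did not pass. POLQ, lower with olaparib alone in the panel (-0.50 ± 0.057 (SE)) and with talazoparib alone (-0.53 ± 0.056 (SE)), ended above the sum of the single agents in both combinations, by 0.34 ± 0.08 (SE) (adjusted p = 0.00633) and 0.40 ± 0.078 (SE) (adjusted p = 0.00123). Both values rest on the same DMSO libraries, where POLQ was widely spread (65.4 ± 8.53 CPM, SD). Neither was refitted without a library or in another setting.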
